A study of Homo sapiens with 39 samples.

Results

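The response of MV-4-11 cells to tamibarotene was compared gene by gene with that of NOMO-1 cells, on the 12 arrays of these lines among the 39 arrays of the series. MV-4-11 and NOMO-1 are established human acute myeloid leukemia cell lines that both carry a fusion of the chromatin regulator gene KMT2A, with AFF1 as the partner in MV-4-11 and MLLT3 in NOMO-1. Each line was given either tamibarotene (SY-1425), a synthetic agonist selective for the retinoic acid receptor RARA, or the solvent DMSO as vehicle, and total RNA was taken after 24 h. Per the labels, the drug was given as a 100 nM solution that made 50 nM in the culture. There were 3 arrays in each of the 4 groups, which are called MV-4-11 vehicle, MV-4-11 treated, NOMO-1 vehicle and NOMO-1 treated. The arrays were chosen by their labels alone. Nothing in the labels tells whether the 3 replicates were grown apart. The p-values therefore rest on the spread between arrays of the same group, pooled over all groups of the series, which may be technical. Each line is a single line that cannot stand for its fusion type.

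RARA is a nuclear receptor that binds DNA together with an RXR partner at paired copies of a short half-site. Without a ligand the pair recruits corepressors, and an agonist exchanges these for coactivators, so that target genes are transcribed. Retinoic acid and its analogues are known for driving leukemic promyelocytes towards granulocytes, and among the genes they induce are their own catabolic enzymes, the surface enzyme CD38 and the integrin CD11b. The question was which genes the drug changed by unequal amounts in these 2 lines.

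For each gene, the response of a line is the mean log2 intensity of its treated arrays minus that of its vehicle arrays. The response difference is the MV-4-11 response minus the NOMO-1 response, so 1 unit is a factor of 2. A gene was called when its Benjamini-Hochberg adjusted p in limma, over the 18132 genes tested, was under 0.05. Errors are standard errors of that fit unless named otherwise, and the fit shares 1 estimate of spread per gene among all 14 groups in the series. Levels of different genes were not set against each other, since probe sets differ in brightness. The log2 values on the 12 arrays ran from 1.87 to 14.43. The files used here give no detection call. A group mean under 4.06, the 25th percentile of the genes' mean levels over all 39 arrays, is called dim. A change to or from a dim mean is the difference of the 2 values as deposited, with no claim that the dim one was above background. Not every dim mean is marked below.

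The 12 arrays were alike in quality. Their median log2 intensities lay between 5.02 and 5.17, and the 3′ minus 5′ log2 difference of the beta-actin control probe sets lay between 0.01 and 0.17. Correlations between arrays of a group were lowest in NOMO-1 vehicle, at 0.979, and so was the agreement between replicates, with a median SD of 0.17 there and 0.11 to 0.14 in the other 3 groups. The number of arrays limits the precision, and the median standard error of a response difference was 0.19. Of 10 monocyte markers, 7 in MV-4-11 and 9 in NOMO-1 stood above the level of the dimmest 25% of genes with vehicle. Their summed log2 levels ran from 69.0 to 70.9 in MV-4-11 vehicle, 67.7 to 68.6 in MV-4-11 treated, 91.4 to 92.1 in NOMO-1 vehicle and 90.0 to 91.0 in NOMO-1 treated. Single members weigh on these sums, with S100A8 down by 3.0 in MV-4-11 and VCAN by 1.62 in NOMO-1. The median response of the 10 in MV-4-11 was 0.12. The 12 markers of adherent cells reached at most 6.41 and 6.88 in MV-4-11 and 7.56 and 7.82 in NOMO-1, with vehicle and with the drug, and none of them was called in either response or in the response difference.

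The response difference was called for 655 genes, 3.61% of those tested. The MV-4-11 response lay above that of NOMO-1 for 291 genes (1.6%) and below it for 364 genes (2.01%). The median over all genes was -0.03, and the median absolute difference among called genes was 0.91. The called genes included 140 in each direction that differed by at least 1 log2 unit, and 42 higher and 19 lower by at least 2.

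In MV-4-11 783 genes rose (4.32%) and 616 fell (3.4%), and in NOMO-1 502 rose (2.77%) and 129 fell (0.711%), 3.48% in both directions together. The NOMO-1 counts moved with single arrays: without vehicle replicate 2, 666 genes rose and 318 fell, without vehicle replicate 3, 306 rose and 93 fell, without treated replicate 1, 345 rose and 80 fell, and without treated replicate 2, 331 rose and 73 fell. Genes called up in both lines numbered 247, which is 31.5% of the MV-4-11 rises and 49.2% of the NOMO-1 rises. Genes called down in both numbered 28, 4.55% of the MV-4-11 falls and 21.7% of the NOMO-1 falls. Across genes, the 2 responses had a Pearson correlation of 0.333, as a description over genes that are not independent replicates.

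The 291 genes with a response difference above 0 were for the most part genes that rose in MV-4-11. Among them 179 rose in MV-4-11 and were not called in NOMO-1, and 73 rose in both lines. A further 31 fell in NOMO-1 with no call in MV-4-11, and 6 were called in neither line. The remaining 2, HSPB1 and TUBA4A, rose in MV-4-11 and fell in NOMO-1. Of the 364 genes with a difference below 0, 232 fell in MV-4-11 with no call in NOMO-1. Another 76 rose in NOMO-1 with no call in MV-4-11. A line without a call may still have changed. A further 28 were called in neither line, 17 fell in MV-4-11 and rose in NOMO-1, 6 fell in both and 5 rose in both.

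**Figure D1:**
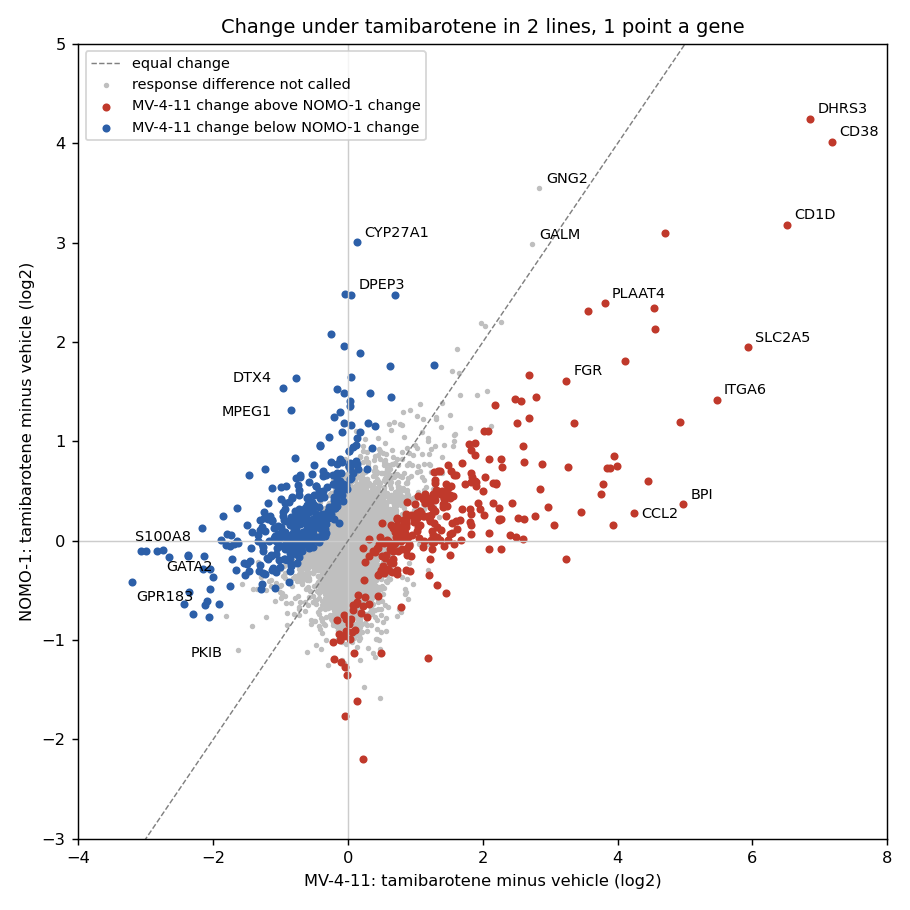
Response of each of the 18132 genes in MV-4-11 (horizontal axis, log2) and in NOMO-1 (vertical axis, log2), with genes called in the response difference in red (291, MV-4-11 response above) and blue (364, below) and the dashed line marking equal change. CD38, DHRS3 and CD1D lie at the upper right, below the line of equal change, S100A8, GATA2 and GPR183 at the left near a NOMO-1 response of 0, and CYP27A1 and DPEP3 at the top near an MV-4-11 response of 0.

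CYP26A1, the enzyme that hydroxylates retinoic acid for its removal, and CD1D, which presents lipid antigens to natural killer T cells, were among the 15 genes with the highest response difference. Their RefSeq promoter windows (GRCh38.p14) are shown because they hold a match to the direct repeat with a 5-base spacer that receptor pairs of RARA and RXR are known to bind. The 250 bases before the annotated start are printed 5′ to 3′ on the gene's strand, with the match in capitals. The CYP26A1 window is chr10:93073643-93073892 on the plus strand, with the repeat on the reverse strand 74 to 90 bases before the start. The CD1D window is chr1:158179697-158179946 on the plus strand, with the repeat on the forward strand 189 to 205 bases before the start.
CYP26A1: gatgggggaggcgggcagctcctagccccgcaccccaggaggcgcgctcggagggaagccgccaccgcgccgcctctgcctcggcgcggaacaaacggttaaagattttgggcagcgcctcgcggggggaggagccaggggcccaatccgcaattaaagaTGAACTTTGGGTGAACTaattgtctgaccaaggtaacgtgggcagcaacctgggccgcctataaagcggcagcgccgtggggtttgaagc
CD1D: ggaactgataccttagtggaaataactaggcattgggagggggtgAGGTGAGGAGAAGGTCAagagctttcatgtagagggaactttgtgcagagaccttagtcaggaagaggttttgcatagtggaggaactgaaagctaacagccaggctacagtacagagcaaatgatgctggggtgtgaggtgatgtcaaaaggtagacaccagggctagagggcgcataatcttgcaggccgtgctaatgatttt

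The search took 2 half-sites in the same orientation on either strand. A half-site was 6 bases long and read A or G, then G, then G or T, then T, then C or G, then A. A match was found in 99 of the 35116 windows of the table (0.282%) and in 41 of the 14425 tested genes that had a window (0.284%). Among the 15 highest response differences, 12 genes had a window and 2 of them held a match. Over all called genes with a window, it was 3 of 229 (1.31%) with a difference above 0 and 0 of 282 below. For both genes it stood in 1 of their 2 windows. A match describes these letters and is no evidence of binding.

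The highest response difference of all genes belonged to BPI, the bactericidal permeability-increasing protein of the primary granules. The MV-4-11 vehicle arrays read 3.47, 3.52 and 3.95 and the treated arrays 8.60, 8.71 and 8.54. In NOMO-1 the vehicle arrays read 8.73, 8.75 and 8.53 and the treated arrays 9.10, 9.01 and 9.01. Treated MV-4-11 thus came close to where NOMO-1 stood without the drug, and the arrays of neither line overlapped. The MV-4-11 vehicle mean, 3.65, was dim. BPI rose by 4.97 ± 0.14 in MV-4-11 and by 0.37 ± 0.14 in NOMO-1, which was not called (adjusted p = 0.181), for a response difference of 4.60 ± 0.19 (adjusted p = 6.41e-17). Fewer cells that express a gene and less of its RNA per cell cannot be told apart in such bulk samples.

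ITGA6, the alpha 6 chain of a laminin-binding integrin, crossed over. Its level was 2.97, 3.35 and 2.77 in MV-4-11 vehicle and 8.61, 8.96 and 7.93 in MV-4-11 treated, against 4.65, 4.43 and 5.0 in NOMO-1 vehicle and 6.02, 5.92 and 6.40 in NOMO-1 treated. Vehicle MV-4-11 lay below vehicle NOMO-1 by 1.66 (adjusted p = 7.98e-06), and treated MV-4-11 lay above treated NOMO-1 by 2.39 (adjusted p = 1.43e-08). The response difference was 4.05 ± 0.39 (adjusted p = 7.32e-09). ITGAM, which encodes CD11b and is a classical marker of myeloid maturation, rose without crossing. MV-4-11 went from 3.83, 3.03 and 3.64 to 7.14, 7.38 and 7.25, while NOMO-1 stood at 10.86, 10.81 and 10.80 with vehicle and 11.44, 11.27 and 11.18 with the drug. The rise of 3.75 ± 0.18 in MV-4-11 left it 4.04 below treated NOMO-1, and the response difference was 3.28 ± 0.25 (adjusted p = 5.33e-11). Another ITGAM probe set gave 0.30 and a further one 2.35, of which 1 was called.

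SLC2A5, the fructose transporter GLUT5, also crossed. It read 6.91, 6.77 and 7.06 in MV-4-11 vehicle and 12.81, 12.82 and 12.91 in MV-4-11 treated, a 61.1-fold rise, against 8.87, 9.05 and 8.67 and then 10.87, 10.93 and 10.65 in NOMO-1, a 3.87-fold rise. All 4 groups were apart, with treated MV-4-11 the highest. This gave a response difference of 3.98 ± 0.17 (adjusted p = 1.36e-16), and its 6 other probe sets ranged from 0.30 to 4.09 with 4 called. FBP1, the gluconeogenic fructose-1,6-bisphosphatase, rose by 3.85 ± 0.19 in MV-4-11 and by 0.73 ± 0.19 in NOMO-1, with a response difference of 3.12 ± 0.26. After treatment its level did not differ beyond the error between the lines, by 0.15 (95% interval -0.23 to 0.53).

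CCL2, the chemokine that attracts monocytes, rose from 4.04, 3.86 and 4.07 to 8.29, 8.24 and 8.17 in MV-4-11. The NOMO-1 arrays overlapped, at 6.31, 6.31 and 5.70 with vehicle and 6.46, 6.51 and 6.20 with the drug. Its response difference was 3.96 ± 0.24 (adjusted p = 2.56e-13). CLIC3, an intracellular chloride channel protein, and ALOX12, the platelet-type 12-lipoxygenase of arachidonic acid, were higher in MV-4-11 from the start and moved further away. CLIC3 rose by 4.45 ± 0.13 in MV-4-11 and by 0.61 ± 0.13 in NOMO-1, with only treated MV-4-11 not dim, and ALOX12 rose 15.3-fold in MV-4-11 while the NOMO-1 arrays overlapped between 3.06 and 3.49. Among the 5 other lines of the series the CLIC3 response was lowest in Kasumi-1, at 0.06, and highest in OCI-AML3, at 6.14. That of ALOX12 ran from -0.17 (OCI-M1) to 0.15 (OCI-AML3).

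CD38 rose in both lines. It went from 3.36, 3.40 and 3.79 to 10.75, 10.70 and 10.66 in MV-4-11, where the vehicle mean was dim, and from 6.54, 6.74 and 6.65 to 10.67, 10.58 and 10.73 in NOMO-1, a 16.2-fold rise. The rise was 7.18 ± 0.12 in MV-4-11. Treated arrays of the lines overlapped, with a level difference of 0.04 (95% interval -0.21 to 0.30), while vehicle MV-4-11 lay 3.12 below vehicle NOMO-1. For CD38 the response difference was 3.17 ± 0.18 (adjusted p = 3.52e-14). CD1D followed a like course, from 5.41, 4.87 and 5.47 to 11.81, 11.75 and 11.73 in MV-4-11 and from 7.99, 8.12 and 7.94 to 11.08, 11.36 and 11.16 in NOMO-1. Its response difference was 3.33 ± 0.19 (adjusted p = 1.07e-13), but its only other probe set gave 0.42 and was not called.

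The remaining genes of the 15 highest were SEL1L3 (3.74), ARRDC4 (3.42), an arrestin-like protein, APOC1 (3.24), an apolipoprotein, RHOQ (3.17) and COL8A2 (3.16), a chain of type VIII collagen. In NOMO-1, 9 of the 15 were called up, beside 2.77% of all genes. The MV-4-11 vehicle means of BPI, ITGA6, CCL2, CLIC3, ITGAM, CYP26A1 and CD38 were dim. In the vehicle arrays 11 were lower in MV-4-11 than in NOMO-1, and 2 were higher, where 17.6% of all genes were called lower and 25.5% higher (43.1% in all). In the treated arrays 12 were higher in MV-4-11 than in NOMO-1, 2 were lower (BPI and ITGAM) and 1 was not called (CD38), where 34.7% of all genes were called in either direction. Since these levels come from the same arrays as the responses, they describe the 15 genes and are no separate evidence. The other probe set of COL8A2 gave 0.73 and was not called, and the 4 others of APOC1 ranged from 0.07 to 3.69 with 1 called.

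**Figure D2:**
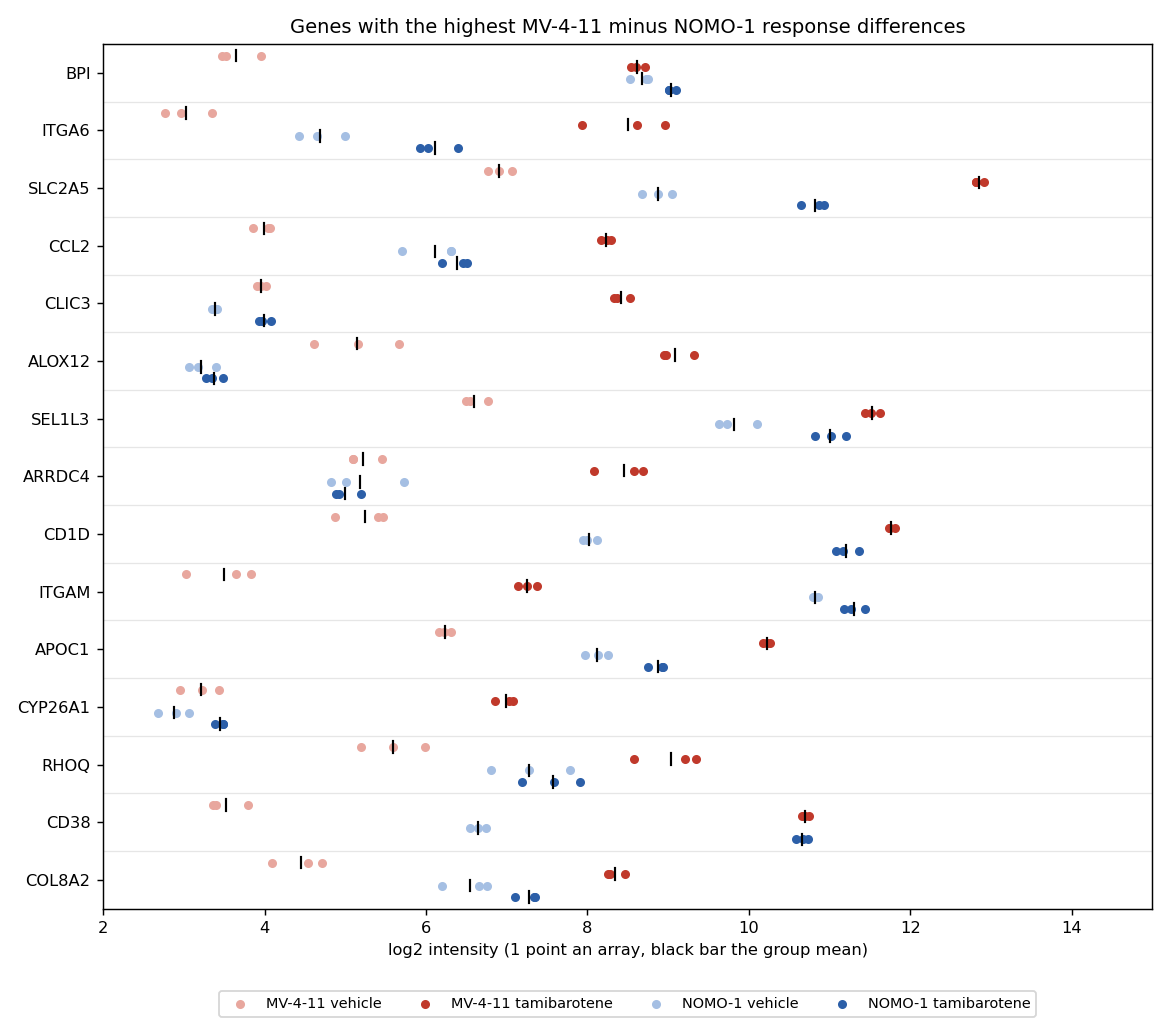
Log2 intensity of the 15 genes with the highest response difference on each of the 12 arrays (1 point an array, black bar the mean of 3). The genes were chosen with no overlap of arrays in the line of the larger change, and for CD38 the treated groups of the lines lie together near 10.7.

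Both retinoid enzymes called in the response difference, CYP26A1 and DHRS3, rose in each line and by more in MV-4-11. CYP26A1 went from 3.44, 2.95 and 3.23 to 6.86, 7.03 and 7.08 in MV-4-11, and from 2.90, 3.06 and 2.68 to 3.49, 3.38 and 3.49 in NOMO-1. The response was 3.78 ± 0.15 in MV-4-11 and 0.58 ± 0.15 in NOMO-1, both called, although the group means other than that of treated MV-4-11 were dim. The response difference was 3.21 ± 0.21 (adjusted p = 2.06e-12). Vehicle levels of CYP26A1 did not pass the test between the lines (0.33, adjusted p = 0.0726). DHRS3, which reduces retinal back to retinol, went from 4.53, 3.85 and 4.08 to 10.99, 11.01 and 11.04 in MV-4-11 and from 5.09, 5.48 and 5.05 to 9.45, 9.45 and 9.46 in NOMO-1. Treated MV-4-11 ended 1.56 above treated NOMO-1. The DHRS3 response difference was 2.61 ± 0.24, with 0.45 and 1.36 on the other probe sets, of which 1 was called. No other member of the 17 retinoid metabolism genes was called, where 3.61% of all genes were.

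The retinoic acid-induced genes had the highest share of called members with a difference above 0, 8 of 19 measured against 1.6% of all genes. Below 0 it was 1 of 19, against 2.01%. The list was written with earlier results of these data known, so its direction is no independent evidence. Its median response was 1.27 in MV-4-11 and 0.45 in NOMO-1, beside -0.01 and 0.02 over all genes. PLAAT4, a phospholipase induced by retinoids, rose 14.1-fold and 5.24-fold, ID1, which sequesters E proteins, 6.06-fold and 1.94-fold, and the Src family kinase FGR 9.42-fold and 3.05-fold in MV-4-11 and NOMO-1. The response differences were 1.42 ± 0.20, 1.64 ± 0.16 and 1.63 ± 0.17, all called. The 2 other PLAAT4 probe sets gave -0.23 and 1.36, with 1 called. The FGR level after treatment was not called between the lines (-0.07, 95% interval -0.31 to 0.18), and its other probe set gave a response difference of -0.38. The adhesion molecule ICAM1 differed by 1.12 ± 0.28 (adjusted p = 0.0177), a call lost without MV-4-11 vehicle replicate 2 (0.0609) or NOMO-1 vehicle replicate 3 (0.0517). PRAM1, a myeloid adaptor protein named here after its values were seen, differed by 1.76, and CD38 completes the 8. IRF1, an interferon regulatory factor likewise named after its values were seen, rose in both lines and by more in NOMO-1 (1.27 and 1.77, response difference -0.50, adjusted p = 0.0148). It was not called with only the 12 arrays, or without MV-4-11 vehicle replicate 3, NOMO-1 treated replicate 2 or NOMO-1 vehicle replicate 3.

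Of the receptors themselves, RXRA alone among 6 was called in the response difference, where 3.61% of all genes were. RARA read 8.33, 8.40 and 8.41 in MV-4-11 vehicle and 7.19, 7.51 and 6.83 in NOMO-1 vehicle, and its level was higher in MV-4-11 by 1.21 before and 1.09 after the drug, both called. Its response passed the test in neither line, with a response difference of -0.11 (95% interval -0.58 to 0.36). These RARA values rest on 1 probe set. The 9 others gave response differences from -0.3 to 0.08, none called, and their levels are not given here. For RARB, RARG and RXRB the response differences were -0.10, 0.01 and 0.01, none called. RXRA, a partner of RARA, fell in MV-4-11 from 10.02, 9.79 and 10.39 to 9.07, 8.92 and 9.42, while the NOMO-1 arrays overlapped between 8.60 and 8.92. Its response difference was -0.85 ± 0.19 (adjusted p = 0.00536, and 0.0903 in a fit of only the 12 arrays). Among 11 corepressor and coactivator genes TBL1X, a subunit of corepressor complexes, was the 1 called, at -1.01 ± 0.18, against the same 3.61%. None of its 6 other probe sets was called.

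The gene with the lowest response difference was IL1RN, the secreted antagonist of the interleukin-1 receptor. It fell from 7.68, 7.12 and 7.67 to 4.67, 4.35 and 4.23 in MV-4-11, an 8.43-fold fall. NOMO-1 arrays overlapped, at 8.52, 9.01 and 8.55 with vehicle and 8.70, 8.35 and 8.72 with the drug. Its response difference came to -2.97 ± 0.23 (adjusted p = 9.43e-11), and -1.51 on the other probe set, also called.

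S100A8, a calgranulin abundant in monocytes and neutrophils, fell from 9.16, 9.31 and 9.33 to 6.47, 6.09 and 6.23 in MV-4-11. NOMO-1 read 13.70, 13.52 and 13.62 with vehicle and 13.51, 13.52 and 13.49 with the drug, close to the highest value on these arrays, 14.43. The response difference was -2.89 ± 0.16 (adjusted p = 3.76e-14). S100A10, which pairs with annexin A2, fell 3.11-fold in MV-4-11 and by 0.02 in NOMO-1, with a difference of -1.62 ± 0.26. These were the 2 called of 17 S100, annexin and galectin genes, where 3.61% of all genes were called. Of the 17, 7 fell in MV-4-11 and 3 in NOMO-1, beside 3.4% and 0.711% of all genes. LGALS3 was down in both lines, by 0.84 ± 0.14 and 0.62 ± 0.14.

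GATA2, a transcription factor of progenitors and mast cells, fell from 6.53, 6.13 and 6.56 to 4.12, 3.60 and 3.25 in MV-4-11 and overlapped in NOMO-1, between 7.56 and 7.88. GATA2 had a response difference of -2.66 ± 0.25 (adjusted p = 6.23e-09), and 1 of its 5 other probe sets was called. The other genes called in the eosinophil, basophil and mast cell list went the same way, so that 4 of 11 were called below 0 and none above, against 2.01% of all genes below. FCER1A, the alpha chain of the IgE receptor, fell from 7.13, 7.14 and 6.99 to 5.31, 5.13 and 5.24 in MV-4-11, with a difference of -2.10 ± 0.17. The NOMO-1 means of FCER1A, 3.50 with vehicle and 3.74 with the drug, were dim. PRG2, the eosinophil major basic protein, and RNASE2, the eosinophil-derived neurotoxin, differed by -1.75 ± 0.23 and -1.16 ± 0.18. The treated lines differed in PRG2 level by 0.01 (95% interval -0.32 to 0.35), and in FCER1A level MV-4-11 stayed 1.49 higher.

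Other genes fell in MV-4-11 with no call in NOMO-1. GPR183, a receptor for oxysterols that guides immune cells, fell by 3.20 ± 0.21, from 5.94, 6.88 and 5.79 to 3.13, 3.09 and 2.80. TENT5C, a poly(A) polymerase, fell by 2.83 ± 0.22 and CLEC12A, an inhibitory lectin of myeloid cells, by 2.37 ± 0.19. The treated means of these 3 genes were dim. MCUB, a subunit that holds back the mitochondrial calcium uniporter, fell 6.33-fold, IGLL1, a surrogate light chain of B cell precursors, 4.47-fold and MICAL2, an actin oxidase, 5.16-fold. For MICAL2 and TENT5C the fall took MV-4-11 from above NOMO-1 to a level that did not differ by the test (-0.16 and -0.48). For GPR183, MCUB and CLEC12A it widened a gap that was already there. The other probe set of MCUB gave -0.32 and was not called. Response differences on the 2 others of CLEC12A were -1.03 and 0.02, and on the 2 of TENT5C -1.56 and -0.12, with 1 called for each. The 4 others of MICAL2 ran from -1.88 to -0.04 with 2 called. The 1 other of GPR183 (-1.94) and of IGLL1 (-3.1) was called.

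In 6 of the 15 lowest genes it was NOMO-1 that rose. CYP27A1, the mitochondrial sterol 27-hydroxylase, started level, at 5.82, 5.70 and 6.21 in MV-4-11 and 6.27, 6.24 and 5.86 in NOMO-1. With the drug MV-4-11 read 6.04, 5.98 and 6.11 and NOMO-1 9.18, 9.18 and 9.02, an 8.02-fold rise. The response difference was -2.87 ± 0.18 (adjusted p = 5.62e-13), and in the 5 other lines CYP27A1 changed by -0.09 in KG-1a to 0.49 in Kasumi-1.

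DPEP3, a membrane dipeptidase, rose in NOMO-1 from 7.32, 7.61 and 7.18 to 9.99, 9.81 and 9.74 and overlapped in MV-4-11 between 3.71 and 4.41. EFNB2, the guidance ligand ephrin B2, rose by 2.49 ± 0.19 from a dim mean in NOMO-1 and overlapped in MV-4-11, but none of its 3 other probe sets was called (-0.36 to -0.14). ADGRE3, an adhesion receptor of myeloid cells, rose from 3.08, 3.08 and 2.78 to 4.38, 5.41 and 5.40 in NOMO-1, with treated replicate 1 the lowest. The NOMO-1 vehicle mean of ADGRE3 (2.98) and the MV-4-11 means of ADGRE3 (3.13 and 2.89) and EFNB2 (3.67 and 3.62) were dim. CD36, a scavenger receptor for fatty acids, rose by 1.63 ± 0.27 from a dim mean in NOMO-1, and its MV-4-11 arrays overlapped. The response differences of these 4 genes lay between -2.54 and -2.33, all called.

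**Figure D3:**
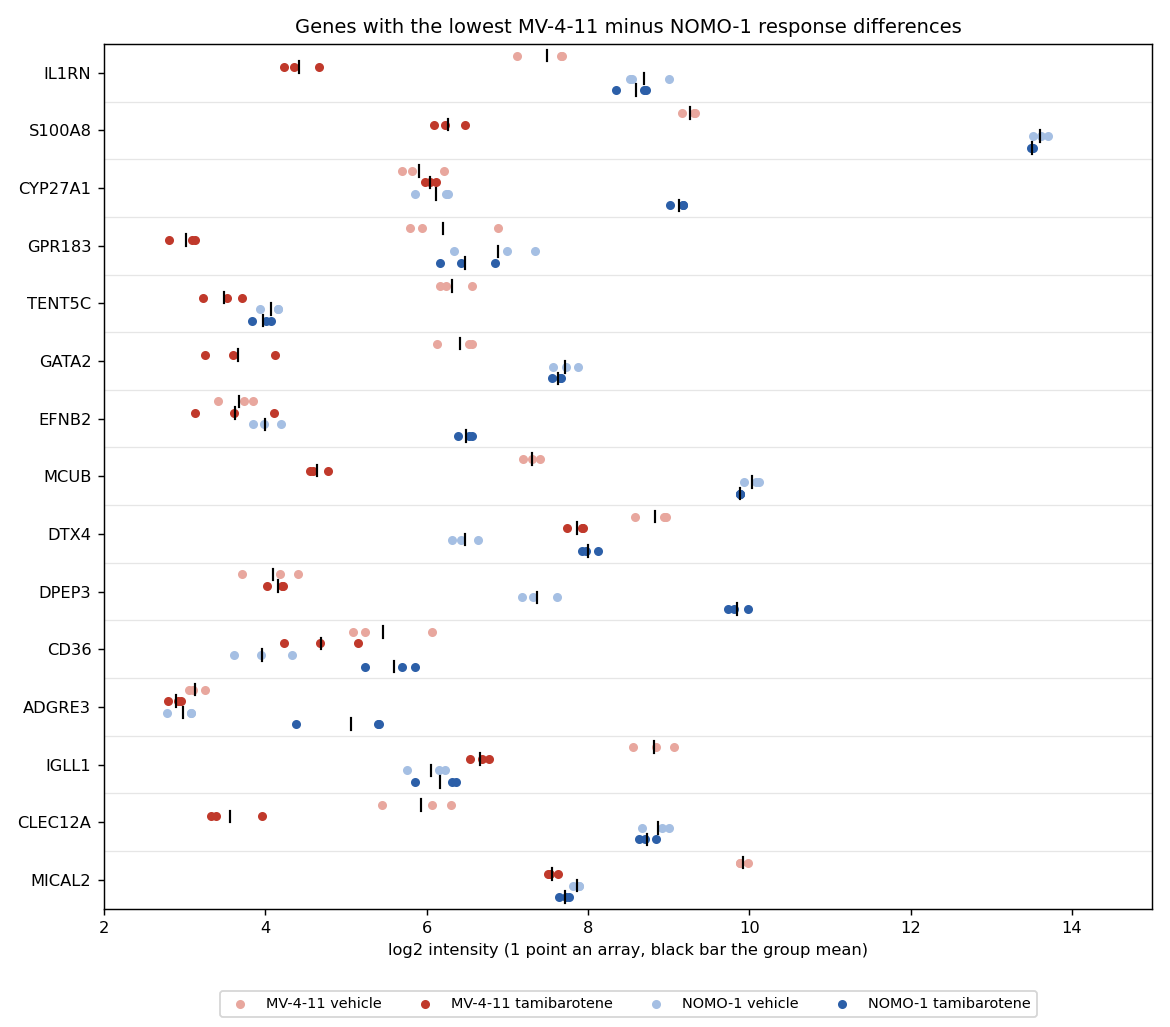
Log2 intensity of the 15 genes with the lowest response difference on each of the 12 arrays (1 point an array, black bar the mean of 3). IL1RN, S100A8 and GATA2 drop in MV-4-11 with NOMO-1 in place, while CYP27A1, EFNB2 and DPEP3 rise in NOMO-1 with MV-4-11 in place.

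Some genes were called in opposite directions. There were 19 of them, all called in the response difference, and 17 fell in MV-4-11 and rose in NOMO-1. DTX4, a Deltex E3 ubiquitin ligase, went from 8.94, 8.58 and 8.97 to 7.94, 7.74 and 7.93 in MV-4-11 and from 6.43, 6.64 and 6.32 to 8.12, 7.92 and 7.97 in NOMO-1. The lines thus met, with treated levels that differed by -0.13 (95% interval -0.44 to 0.17), and the response difference was -2.50 ± 0.21 (adjusted p = 5.28e-10). MPEG1, the pore-forming perforin-2 of phagocytes, came closer too, from 7.18, 7.88 and 7.44 to 6.59, 6.86 and 6.51 in MV-4-11. In NOMO-1 it went from 4.26, 5.33 and 5.06 to 6.41, 5.62 and 6.56, with a response difference of -2.16 ± 0.35. Its treated levels did not differ by the test, though the interval was wide (0.46, 95% interval -0.05 to 0.96).

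BCL6, a zinc finger repressor, moved apart instead, from 5.72, 5.34 and 5.44 to 4.37, 4.46 and 4.31 in MV-4-11 and from 7.09, 7.33 and 7.32 to 7.84, 7.75 and 7.72 in NOMO-1. MT1H, a metallothionein, and SMIM14 also moved apart, with differences of -2.14 ± 0.25 and -1.95 ± 0.25, though probes of a metallothionein can take up signal of its close paralogs. NFIL3, a basic leucine zipper factor, and SOX4, a progenitor transcription factor, came closer, with differences of -1.62 ± 0.21 and -1.54 ± 0.19. TSC22D3, a glucocorticoid-induced leucine zipper protein, did not differ by the test in vehicle (0.21) and lay 1.26 lower in treated MV-4-11.

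By contrast 169 genes rose in both lines without a called difference, and 22 fell in both. GALM, the galactose mutarotase, rose from 6.94, 6.80 and 7.09 to 9.58, 9.74 and 9.71 in MV-4-11 and from 7.68, 7.99 and 7.66 to 10.97, 10.76 and 10.55 in NOMO-1. That left a response difference of -0.25 (95% interval -0.68 to 0.18). NAPSB, a napsin pseudogene, rose 4.81-fold and 4.61-fold, with a difference of 0.06 (-0.32 to 0.44), and GBP4, a guanylate-binding protein, 4.10-fold and 4.46-fold, with -0.12 (-0.63 to 0.39). IER3 and FAM117A gave -0.21 (-0.59 to 0.16) and -0.05 (-0.37 to 0.27). GNG2, a G protein gamma subunit, rose by 2.84 ± 0.24, from a dim mean, and 3.55 ± 0.24, and the response difference of GNG2, -0.71 (-1.41 to -0.01), was called without NOMO-1 vehicle replicate 3 (-1.10, adjusted p = 0.0339). The 2 other GNG2 probe sets gave differences of -1.11 and -0.58, with 1 called below 0. Their responses ran from 0.22 to 0.84 in MV-4-11 and from 0.80 to 1.95 in NOMO-1. These intervals bound the difference and do not show that the lines acted alike.

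Falls of like size were smaller. PKIB, an inhibitor of protein kinase A, fell 3.11-fold in MV-4-11 and by 1.10 ± 0.17 in NOMO-1, with a difference of -0.53 (-1.02 to -0.04), and 3 of its 4 other probe sets were called below 0. For RAB7B, a late endosomal GTPase, NT5DC2, LGALS3, a galectin, TUBB2A, a beta-tubulin, and LMNA, the nuclear lamin A/C, the differences lay between -0.30 and -0.02.

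**Figure D4:**
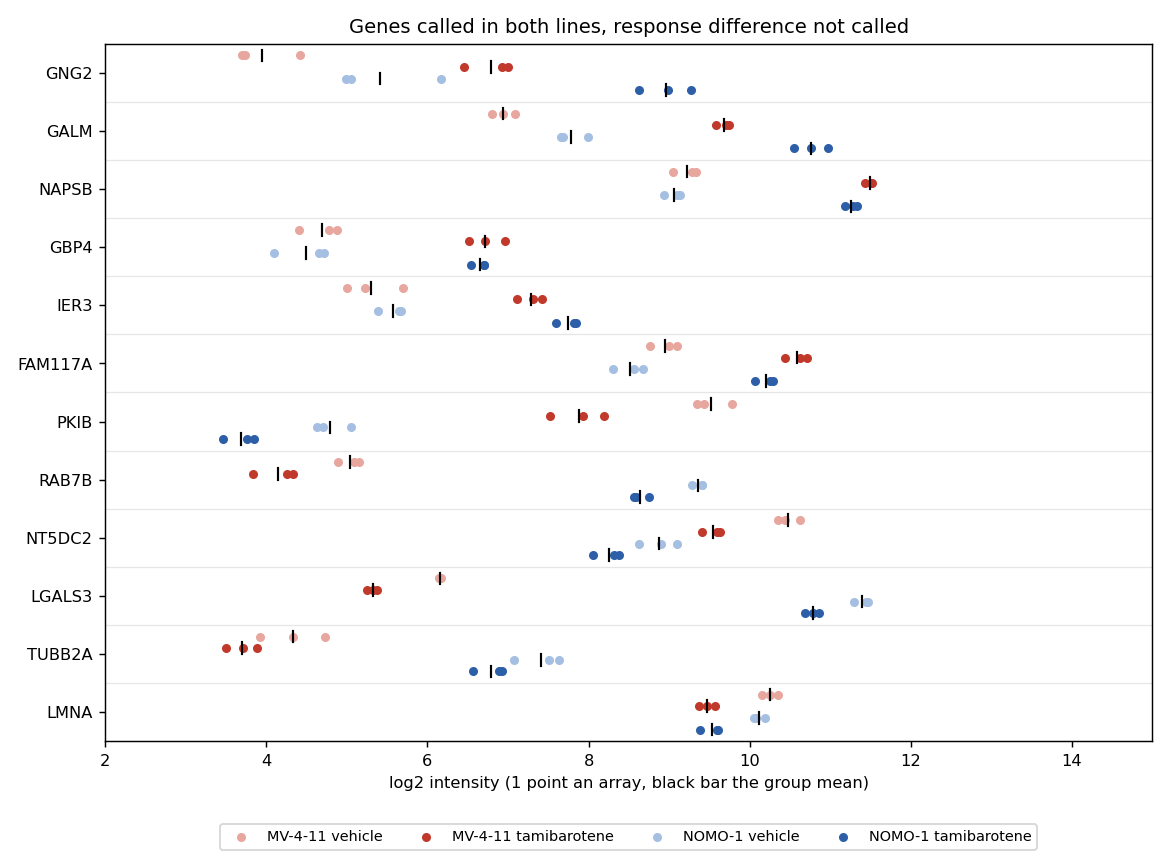
Log2 intensity of 6 genes that rose and 6 that fell in both lines with no called response difference, on each of the 12 arrays (1 point an array, black bar the mean of 3). In each row the treated points of both lines lie on the same side of their vehicle points, at levels that can differ between lines, as for PKIB, RAB7B and LGALS3.

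Granule proteins of neutrophils split in both directions. Of 13 primary granule genes 3 were called above 0 and 3 below, where 1.6% and 2.01% of all genes were. These 2 shares are the background for the count of every list that follows. CTSG, the serine protease cathepsin G, fell in MV-4-11 from 12.15, 12.04 and 12.14 to 9.90, 9.88 and 10.14, beside 13.67, 13.67 and 13.59 and then 13.52, 13.48 and 13.47 in NOMO-1, near the top of the range. Its difference was -1.98 ± 0.16. CST7, the inhibitor cystatin F, and RNASE2 were also below 0, at -1.87 ± 0.17 and -1.16 ± 0.18. MS4A3, a membrane protein of granulocyte progenitors, was above 0 and fell in NOMO-1, from 6.73, 6.55 and 7.06 to 5.05, 4.94 and 5.06, with MV-4-11 in place between 12.32 and 12.66. BPI and SERPINB1, an inhibitor of granule proteases (0.75 ± 0.12), rose in MV-4-11.

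Of 16 secondary and tertiary granule genes CHI3L1, a chitinase-like glycoprotein, was the 1 called. It went from 8.61, 8.29 and 8.50 to 11.74, 11.79 and 11.94 in MV-4-11 and from 8.98, 8.92 and 8.68 to 10.10, 10.14 and 9.90 in NOMO-1, with a difference of 2.17 ± 0.24. Of 4 NADPH oxidase genes NCF4 was called at -0.43 ± 0.12 (adjusted p = 0.0309), although neither line's own response was, and this call was lost in 7 of 12 fits that each left out 1 array (adjusted p 0.0562 to 0.119).

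Surface receptors gave 3 called above 0, with CD1D among them, and 2 below of 27. LILRB2, an inhibitory receptor for MHC class I, rose from 3.56, 3.33 and 4.08 to 7.68, 7.88 and 7.73 in MV-4-11 and 3.50-fold in NOMO-1, with a difference of 2.29 ± 0.22. Its MV-4-11 vehicle mean, 3.66, was dim. IL3RA, the alpha chain of the interleukin-3 receptor, rose 1.47-fold in NOMO-1 and read -0.47 in MV-4-11, with a difference of -1.02 ± 0.22. LILRB1 (0.80, adjusted p = 0.0429) and CSF2RB, the beta chain shared by the interleukin-3 family of receptors (-0.85, adjusted p = 0.0184), lost their calls in 11 and 4 of the 12 fits that left out 1 array. The CSF2RB response itself was called in neither line (adjusted p = 0.11 in MV-4-11 and 0.145 in NOMO-1). Integrins and adhesion genes gave 3 of 19, ITGA6, ITGAM and ICAM1, all above 0, and Src family kinases 2 of 9, FGR and BLK (0.91 ± 0.21). BLK was also the 1 called of 7 B cell markers.

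Chemokines and cytokines gave 3 above 0 and 1 below of 23. CCL5, a T cell and monocyte chemoattractant, rose from 7.68, 7.21 and 7.71 to 9.89, 9.88 and 10.04 in MV-4-11, where NOMO-1 read 10.02, 10.03 and 9.67 with vehicle and 9.96, 10.09 and 9.85 with the drug (treated level difference -0.03, 95% interval -0.34 to 0.29). Its NOMO-1 arrays overlapped, and the response difference was 2.34 ± 0.22. CXCL8, interleukin-8, was called at 0.94 ± 0.24 (adjusted p = 0.0165), and not without MV-4-11 treated replicate 1 (0.0834), MV-4-11 vehicle replicate 3 (0.0748) or NOMO-1 vehicle replicate 3 (0.0657).

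Of 34 interferon response genes 3 were above 0 (1.6% of all genes) and 3 below (2.01%). In MV-4-11 9 members rose and in NOMO-1 11, beside 4.32% and 2.77% of all genes. IFI30, a lysosomal thiol reductase, rose 4.81-fold and 1.77-fold, and IFI35 rose 2.58-fold and 1.38-fold, with differences of 1.44 ± 0.17 and 0.90 ± 0.15. GBP2, a guanylate-binding GTPase, rose in NOMO-1 from 4.27, 4.22 and 5.07 to 5.35, 5.92 and 6.17 and overlapped in MV-4-11 between 2.69 and 2.90, near the bottom of the range. Its difference was -1.41 ± 0.25, and the other probe set was not called. GBP5, of the same family, rose by 0.90 ± 0.13 in NOMO-1 with every group mean dim, at -0.89 ± 0.18, and IRF1, with the losses given above, was the third below. The call of IFI6 (0.91 ± 0.20) was lost in the fit of only the 12 arrays (adjusted p = 0.0804).

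Most MHC genes were not called. Of 14 class I genes 5 rose in each line, and of 14 class II genes 3 rose in MV-4-11 and 4 in NOMO-1, beside 4.32% and 2.77% of all genes. In the response difference 1 of 14 class I genes was called, HLA-F at 0.84 ± 0.19, and none of its 9 other probe sets was. Among class II genes HLA-DMA, a peptide loading subunit, was above 0 with IFI30 (0.80 ± 0.21), and HLA-DQA1 below (-0.64 ± 0.17). HLA-DMA and HLA-DQA1 lost their calls in 5 and 3 of the 12 fits that left out 1 array, with adjusted p up to 0.0777 and 0.0967. Probe sets of HLA genes can share signal with their paralogs.

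Transcription factors of myeloid cells and progenitors gave 8 calls below 0 of 33 measured (2.01% of all genes) and 2 above (1.6%), IRF4 and EGR1 (0.85, named after its values were seen). IRF4, a factor of lymphoid and dendritic cells, rose from 5.79, 5.72 and 6.12 to 8.15, 8.19 and 8.11 in MV-4-11, with NOMO-1 in place between 3.99 and 4.16. Its difference was 2.36 ± 0.18 (adjusted p = 8.18e-11), and in the 5 other lines it changed by at most 0.33. TCF4, a factor of plasmacytoid dendritic cells, fell from 6.29, 6.76 and 6.51 to 4.56, 4.89 and 4.45 in MV-4-11 and overlapped in NOMO-1 between 2.74 and 3.18, with a difference of -1.89 ± 0.26. Both NOMO-1 means of TCF4, at 2.97, were dim. GATA2, BCL6 and SOX4 are described above. CEBPE, a factor of granulocyte maturation, was not called (0.22, 95% interval -0.36 to 0.79).

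The ID and TGF-beta list gave 2 above 0, ID1 and the receptor ACVRL1 (1.02 ± 0.17), and 3 below of 16. TGFBR2, the type II TGF-beta receptor, fell 1.51-fold in MV-4-11 and read 0.44 in NOMO-1, with a difference of -1.04 ± 0.20. SMAD6 (-0.88 ± 0.21) lost its call without NOMO-1 vehicle replicate 3 (adjusted p = 0.0517) and with only the 12 arrays (0.0783). SMAD1 (-1.0 ± 0.27) lost its call in 6 of the 12 fits that left out 1 array. The MV-4-11 means of SMAD1, 3.09 with vehicle and 2.75 with the drug, were dim.

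Lipid handling genes gave 4 above 0 and 2 below of 20. ACSL1, which activates long-chain fatty acids, rose 2.69-fold in MV-4-11 and by 0.36 ± 0.12 in NOMO-1, not called, with a difference of 1.07 ± 0.17. CPT1A, which carries fatty acids into mitochondria, fell 1.64-fold in MV-4-11 and read 0.06 in NOMO-1, with a difference of -0.78 ± 0.11. NPC2, a lysosomal cholesterol carrier, rose in both lines (0.63 ± 0.15), a call lost with only the 12 arrays (adjusted p = 0.0549) and with the mean of its probe sets (0.22, adjusted p = 0.387). LPL, the lipoprotein lipase named after its values were seen, differed by 0.79, and APOC1 and CD36 are described above.

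Sugar genes gave 3 above 0, SLC2A5, FBP1 and the transporter SLC2A6 (1.40 ± 0.26), and 2 below of 13. PFKFB3, which makes the activator of phosphofructokinase, rose 1.54-fold in NOMO-1 (-0.78 ± 0.15), and HK2, a hexokinase, fell 1.7-fold in MV-4-11 (-0.81 ± 0.21, adjusted p = 0.0192, and 0.0667 without NOMO-1 treated replicate 3). DHCR7, the last enzyme of a cholesterol branch, was the 1 called of 11 cholesterol synthesis genes, at 1.0 ± 0.20. Of 20 amino acid supply and ER stress genes XBP1, a factor of the unfolded protein response, rose from 11.53, 11.60 and 11.61 to 12.68, 12.75 and 12.65 in MV-4-11 and overlapped in NOMO-1 (1.18 ± 0.15). HERPUD1 was also above 0 (0.56 ± 0.13) and VLDLR below (-1.27 ± 0.22), and the HERPUD1 call was lost with only the 12 arrays (adjusted p = 0.053).

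Several lists held no called response difference, at a background of 3.61%. None of 31 MYC and ribosome biogenesis genes, 40 replication and mitosis genes, 13 genes of the KMT2A fusion program or 9 HOXB genes was called. The KMT2A list has 20 genes, and the other 7, which are all of its HOXA genes, were not analysed here. The response difference of MYC was near the threshold, at -0.48 ± 0.14 (adjusted p = 0.0627), from 12.56, 12.52 and 12.54 to 12.22, 12.28 and 12.28 in MV-4-11 and from 11.31, 11.22 and 10.98 to 11.33, 11.44 and 11.34 in NOMO-1. MYC was called without NOMO-1 vehicle replicate 1 (-0.55, adjusted p = 0.0378). MEIS1, a homeobox partner of the fusion program, gave 0.30 (95% interval -0.09 to 0.69). In MV-4-11 5 of the 40 replication and mitosis genes and 3 of the 31 MYC and ribosome genes fell, against 0 and 1 in NOMO-1, where 3.4% and 0.711% of all genes fell in these lines. The lists had median responses of -0.11 and -0.21 in MV-4-11 and -0.13 and -0.12 in NOMO-1.

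Growth arrest and death genes gave few calls. GADD45A was the 1 of 13 CDK inhibitor and BTG genes (0.60 ± 0.14, and adjusted p = 0.055 with only the 12 arrays), and the cell cycle inhibitor CDKN1A gave 0.06 (95% interval -0.31 to 0.42). TNFRSF10B, a TRAIL death receptor, was the 1 of 21 p53 targets, at -0.51 ± 0.12 (adjusted p = 0.012). That call was lost without MV-4-11 treated replicate 1 (0.0527), with only the 12 arrays (0.0675), with the mean of its probe sets (0.0668) and with the replicate block (0.0704). TP53I3, an oxidoreductase induced by p53, rose 2.41-fold in MV-4-11. The response difference of TP53I3, 0.93 ± 0.28, was not called (adjusted p = 0.0591). It was called without NOMO-1 treated replicate 1 (1.06, adjusted p = 0.0402) or NOMO-1 vehicle replicate 3 (1.2, 0.00412). BCL2A1, a survival protein of the BCL2 family, was the 1 of 20 cell death regulators, rising 1.94-fold in NOMO-1. Its difference of -0.85 ± 0.23 (adjusted p = 0.0338) was lost in 8 of the 12 fits that left out 1 array. The MV-4-11 means of BCL2A1, 3.09 with vehicle and 3.21 with the drug, were dim.

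Of 10 monocyte markers S100A8 was below 0 and VCAN, the proteoglycan versican, above. VCAN fell in NOMO-1 from 8.75, 7.59 and 9.07 to 7.04, 6.52 and 6.99, and its difference of 1.75 ± 0.46 (adjusted p = 0.0224) was lost in 5 of the 12 fits that left out 1 array, with adjusted p up to 0.101, although its 8 other probe sets were all called. The MV-4-11 means of VCAN, 3.13 with vehicle and 3.26 with the drug, were dim. CD8A was the 1 of 8 T and NK cell markers (-0.93 ± 0.22), with 0.10 on its other probe set, and none of 5 erythroid or 6 megakaryocyte markers was called. The CD8A response itself was called in neither line (adjusted p = 0.0966 in MV-4-11 and 0.079 in NOMO-1). Of 11 reference genes GUSB, a lysosomal glucuronidase used as a reference, rose in both lines and by more in MV-4-11, from 10.45, 10.36 and 10.26 to 11.35, 11.39 and 11.44 (0.60 ± 0.12).

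For some of the called list members no other probe set was called, though all of these lay on the same side of 0. This held for LILRB2 (0.65), IRF4 (0.74), ACVRL1 (0.43), IFI35 (0.60), TGFBR2 (-0.31), CPT1A (-0.48) and GBP5 (-0.30), and for PFKFB3 with 3 others between -0.60 and -0.34. BCL2A1 gave -0.08 on its other probe set. For HLA-DQA1 the 3 others lay between -0.15 and 0.03. With only the 12 arrays the calls of CXCL8 (adjusted p = 0.0945), LILRB1 (0.0731), NCF4 (0.159) and VCAN (0.0519) were lost as well. With the mean of all probe sets so were those of CXCL8 (0.108), CSF2RB (0.155), BCL2A1 (0.0744), HLA-DQA1 (0.375), HLA-F (0.765), CD8A (0.221) and TBL1X (0.342), NCF4 was lost with the replicate block (0.0636) and LILRB1 with array weights (0.101).

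**Figure D5:**
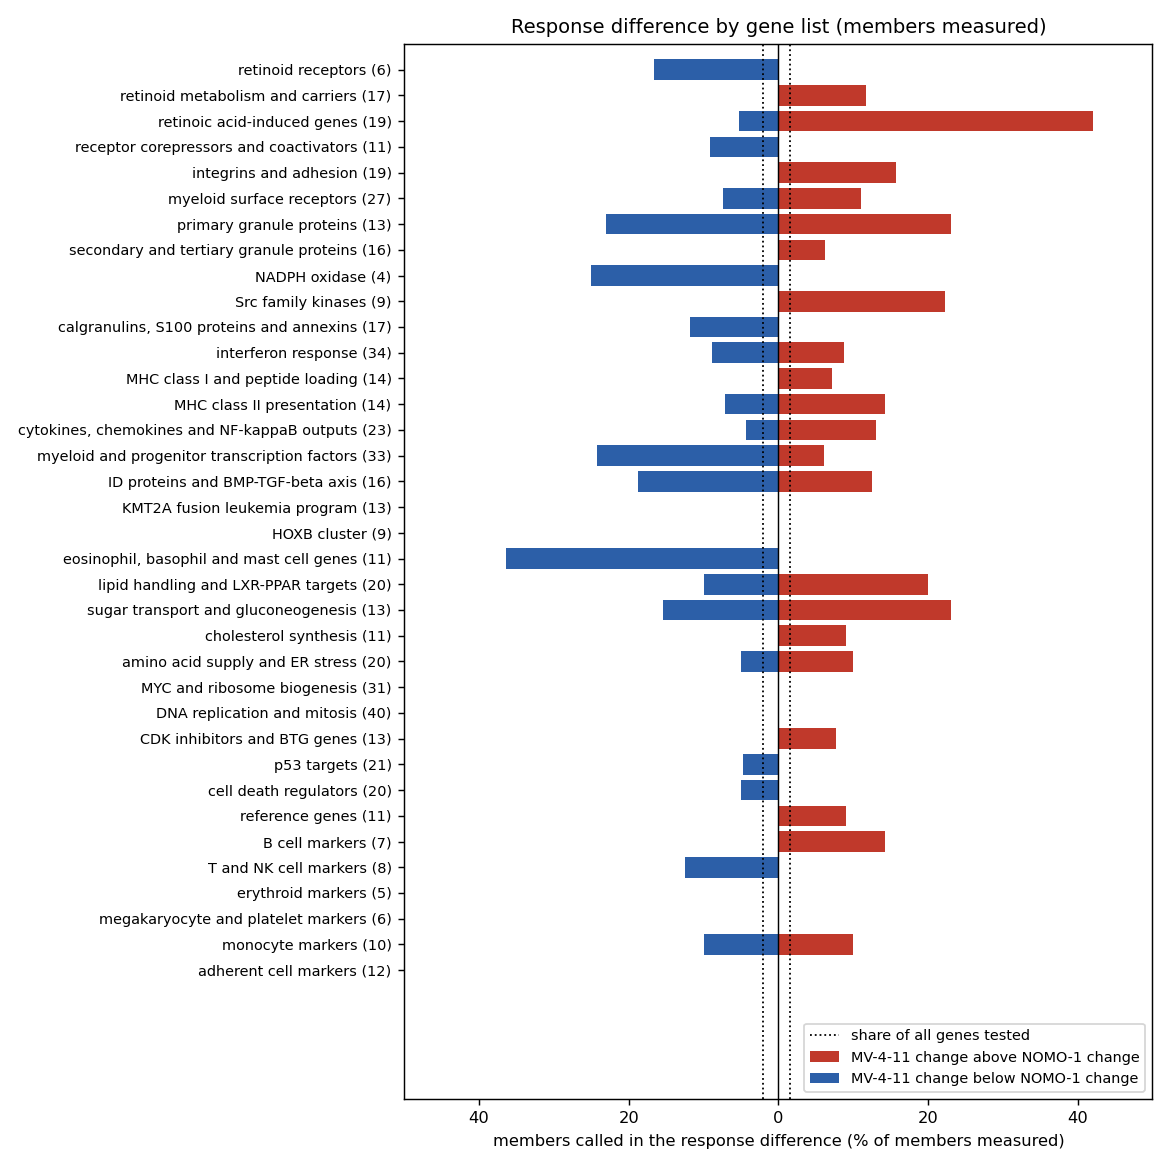
Share of the measured members of each of the 36 gene lists called in the response difference (percent, red to the right for an MV-4-11 response above that of NOMO-1, blue to the left for below), with dotted lines at the shares of all genes tested, 1.6% and 2.01%. Retinoic acid-induced genes extend furthest to the right with 8 of 19, and eosinophil, basophil and mast cell genes furthest to the left with 4 of 11, while the MYC, replication and KMT2A program lists are empty.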

How the data were processed

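Gene expression was measured on microarrays. The deposited log2 intensities came normalized by RMA, and affy is the tool named with it in the submitters' processing notes. Whether all arrays were normalized together is not given in the sources used here. Of 49395 probe sets, 44988 have 1 gene symbol in the platform annotation, and each of 18132 genes was represented by its brightest probe set over all 39 arrays. Probe sets with several symbols (1832), none (2473) or control probe sets (102) were not tested as genes.

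A mean for each of 14 groups of line and arm was fitted to all 39 arrays with limma 3.58.1 in R 4.3.3 (lmFit, contrasts.fit and eBayes, 25 residual degrees of freedom). The contrasts were the response in each line, their difference, and the level difference between the lines with vehicle and with drug, each adjusted by Benjamini-Hochberg and called at 0.05. The fit was tested on simulated data. Tables were handled with pandas 2.3.3, and figures drawn with matplotlib 3.10.9 in Python 3.11.15. Promoter windows are RefSeq's.

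Named genes were the 15 highest and 15 lowest called response differences with no overlap of arrays in the line of the larger change, the 8 largest in opposite directions, 6 shared rises and 6 shared falls, up to 5 called members of each of 36 lists with the smallest adjusted p, and a short set of retinoid, myeloid and cell cycle genes, of which 1 was not analysed here. The comparison, the lists and this rule were chosen with earlier results of these data known. Alternatives were the 12 arrays alone, leaving out each array, a replicate block, quantile normalization, no dim genes, other probe set choices, trend and robust variance, array weights, an actin covariate and a minimum change of 1.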

Additional observations from a re-analysis of the deposited data

Results flagged for a closer look

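The response differed between the lines by its own test for 291 genes in which MV-4-11 lay above NOMO-1 and 364 in which it lay below. Among genes called in opposite directions in the 2 lines, the response differences furthest from 0 were -2.50 for DTX4, -2.16 for MPEG1, -2.14 for MT1H, -1.95 for SMIM14, -1.65 for BCL6, -1.62 for NFIL3, -1.54 for SOX4 and -1.47 for TSC22D3. Probe sets that carry several gene symbols or none, which entered no gene test, held 125 calls among 4305 (2.90%), 65 above 0 and 60 below, beside 2.75% of the probe sets with 1 symbol.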

How the results depend on the processing

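Of 92 named genes called in the response difference, 71 were called with the same sign under every alternative that gave a value for them and 21 lost the call under at least 1. Of 21 not called, 4 were called under at least 1. These counts leave out the minimum change of 1 log2 unit and the test of every probe set. Leaving out 1 array gave 247 to 339 genes above 0 and 268 to 435 below, 643 to 813 rises and 446 to 659 falls in MV-4-11, 306 to 666 rises and 73 to 318 falls in NOMO-1, and 6303 to 8272 vehicle and 5492 to 6467 treated level differences, beside 7806 and 6291.

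Testing all 44988 probe sets gave 602 above 0 and 636 below, 1569 rises and 1168 falls in MV-4-11, 946 and 383 in NOMO-1, and 17248 and 13636 level differences. With array weights these were 798 and 1142, 1196 and 1410, and 1303 and 690, and with a minimum change of 1 log2 unit 140 and 140, 236 and 107, and 90 and 19, with 2072 and 1855 level differences. Only the 12 arrays gave fewer calls, with 205 response differences above 0 and 260 below, beside 291 and 364. That fit gave 648 rises and 484 falls in MV-4-11 and 354 rises and 62 falls in NOMO-1. Averaging all probe sets moved several named genes, among them GATA2 to -0.88, EFNB2 to -0.82, CD1D to 1.88 and FGR to 0.62, all still called. The cause was not tested.

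Replicate numbers do not pair the samples by the labels. Deviations of treated and vehicle arrays with the same number correlated at 0.0995, 0.6696 and 0.5013 in MV-4-11 and 0.0105, 0.5112 and 0.5717 in NOMO-1, and every treated array but MV-4-11 replicate 3 correlated best with its own number. With the number as a replicate block (11 residual degrees of freedom), 429 genes lay above 0 and 414 below, and NOMO-1 had 395 falls. The block takes up the level difference between lines, so those 2 comparisons could not be fitted with it.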
